A study of Mus musculus with 2 samples.

Results

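The apolipoprotein genes Apoa1, Apoa2, Apoa4, Apoa5, Apob, Apoc1, Apoc2, Apoc3, Apoc4 and Apoe were followed in the liver of normal and diabetic mice. They were chosen by gene symbol, and 9 of the 10 were among the 8551 genes of the deposited table; Apoa2 was not listed. Messenger RNA was counted by digital gene expression tag profiling, in which cDNA is cut with the enzyme DpnII and short tags beside the cut are sequenced. Values are tags per 1000000 clean tags of a library, which the study calls TPM. They are not divided by transcript length, so the order of 2 genes within a library is an order of tags and not of molecules.

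There were 2 libraries, 1 from each group. The normal library came from livers of wild type male mice, and the diabetic library from livers of male db/db mice, in which the receptor for leptin is defective and obesity with type 2 diabetes develops. Both groups were labelled as C57BL/6 in background, were 9 weeks old and were killed about 3 h after lights on. The mice came from 2 suppliers, and neither which group came from which nor how many livers went into each library was stated in the sources used here, so genotype cannot be told apart from animal, library or, where it differed, supplier. No difference below has a replicate check, and 95% intervals cover the counting of tags only.

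Apolipoproteins are the protein coat of the particles that carry fat and cholesterol in blood. ApoB is the structural protein of very low density lipoprotein (VLDL), which the liver builds and secretes with triglyceride. ApoA-I and ApoA-II are the main proteins of high density lipoprotein (HDL), ApoE is a ligand for receptors that clear particles, and the small C proteins move between particles, where ApoC-II activates lipoprotein lipase and ApoC-III restrains it. Most of these genes are expressed strongly in hepatocytes, and in the mouse most of them lie in clusters on chromosomes 9 and 7.

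The assay counts short tags that start at the DpnII site GATC. The tags below, cut here at 21 bases, are read from GENCODE M21 transcripts. Each starts at the site nearest the 3′ end that leaves a full tag of 21 bases. They are given for the genes whose values differed by at least 1.5-fold and for Apoe. The tag length and the site of a transcript that was counted were not given in the sources used here. Capitals mark the DpnII site, and the sequences are written 5′ to 3′.
Apoa1: GATCgacaaggccagcgagac
Apob: GATCaccttctgattcatcta
Apoe: GATCttccaggcccgcctcaa
Apoc2: GATCagcatggatgagaaact
Apoc3: GATCtcacctaaacatgctgt
Apoc4: GATCacctgaaagacctgggt
Apoa4: GATCtgcgccgcagcctggcc

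The Apoa1 site lay 101 bases from the end of the transcript, that of Apob 298 and that of Apoa4 706. Apoc2 had 1 site in its transcript and Apob had 50. Apoc4 had 2 sites, of which only 1 left a full tag, so its tag is not from the site nearest the 3′ end. The Apoc2 tag was also found in Gm44805, an annotated read-through transcript on the same strand that spans Apoc2 and Apoc4 and was not listed, so tags of Apoc2 are less certain than the others. The other 6 tags each occurred in 1 gene.

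Apoa2, the second protein of HDL, has no such tag. None of its 4 protein-coding transcripts, which are 458 to 518 bases long, holds GATC. Of 535 protein-coding genes without the site, 2 were listed (0.374%), against 8119 of 21366 genes with at least 1 site (38.0%). No tag could come from these Apoa2 transcripts, so its absence from the table says nothing about its expression.

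The normal library held 10278531 clean tags and the diabetic library 13508232, of which 3809707 and 5993204 fell on listed genes. A single read was worth 0.0973 TPM in normal liver and 0.0740 TPM in diabetic liver. The median log2 ratio of diabetic over normal, over all listed genes, was 0.25 and not 0. Rescaling the libraries in 5 other ways (sum of listed genes, TMM, upper quartile, median ratio, or the sum without the 10 most abundant genes of either library) lowered every log2 ratio by 0.25 to 0.38, and the rescaled range is given for each apolipoprotein gene.

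Of the 9 listed apolipoprotein genes, 6 differed by at least 1.5-fold between the libraries. Among all listed genes 49.7% did so. Among the 57 genes that averaged 1000 TPM or more 59.6% did so, and 4 of the 6 apolipoprotein genes among them. Apoa4, Apoc2, Apoc3 and Apoc4 were at least 1.5-fold higher in the diabetic library, as were 34.4% of all genes. Apoa1 and Apob were at least 1.5-fold lower, as were 15.3% of all genes. The same 6 genes also had a false discovery rate (FDR) under 0.001 in an exact binomial test of the reads of the 2 libraries. Both thresholds together were met by 31.0% of all genes in either direction, 22.9% as higher and 8.19% as lower. Apoe and Apoc1 were under that FDR as well but did not reach 1.5-fold, and Apoa5 met neither threshold. The median log2 ratio of the 9 genes was 0.28, beside 0.25 over all genes. The list as a whole was thus close to all genes in its median, whereas single genes ran from 5.46-fold lower to 6.20-fold higher. Under each of the 5 rescalings 5 genes were called: Apoa4 and Apoc2 as higher, and Apoa1, Apob and Apoe as lower. The split of all genes moved as well, from 34.4% higher and 15.3% lower to 19.8% higher and 28.5% lower at the largest shift.

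**Figure D1:**
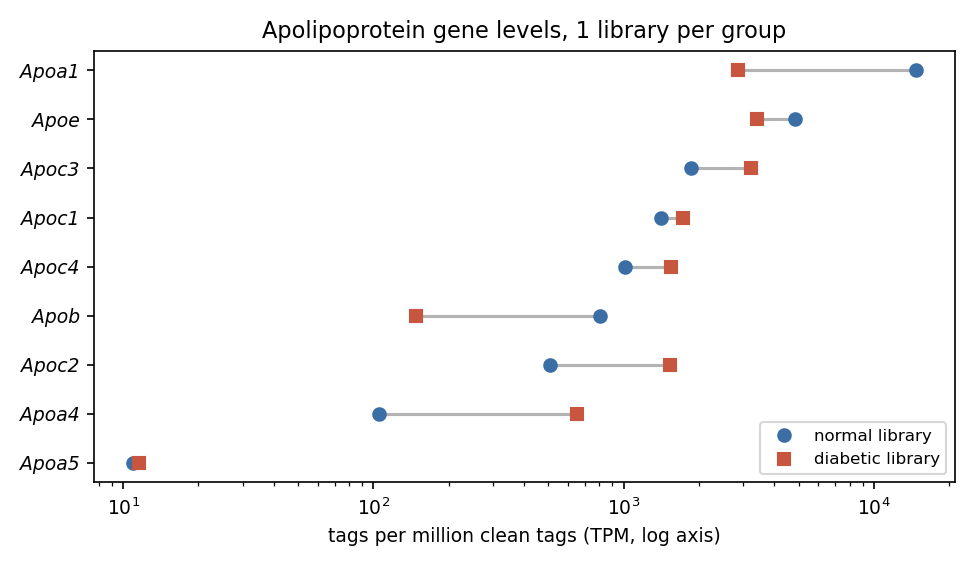
Deposited level of each listed apolipoprotein gene in the normal and the diabetic mouse liver library, in TPM on a log axis; each point is 1 library. Apoa1 was at 14668 TPM in normal liver against 2875 TPM in diabetic liver, while Apoa4 went from 105 to 653 TPM.

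The HDL gene Apoa1 (Entrez 11806) had the most tags of any listed gene in normal liver. It stood at 14668 TPM, or 150767 reads, in normal liver against 2875 TPM, or 38837 reads, in diabetic liver. Its rank among all listed genes went from 1 to 16. It was thus 5.10-fold lower (95% interval 5.05 to 5.16), with a log2 ratio of -2.35. Its level fell by 11793 TPM, the largest decrease of any listed gene. Of the 57 genes that averaged 1000 TPM or more, 1 had a lower log2 ratio than Apoa1, and 78 of all listed genes, Apoa1 included, had a ratio as low.

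Apob (Entrez 238055), the structural gene of VLDL, was at 804 TPM, or 8265 reads, in normal liver against 147 TPM, or 1990 reads, in diabetic liver. It was 5.46-fold lower (5.20 to 5.73), with a log2 ratio of -2.45, and its rank went from 60 to 493. The ratio was as low in 72 listed genes, Apob included. Apob and Apoa1 thus had nearly the same fold change from levels that differed widely. Rescaling left both lower, at log2 ratios of -2.82 to -2.70 for Apob and -2.73 to -2.60 for Apoa1.

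Apob has the longest transcript of the group, at 13934 bases, against 532 to 2515 bases for the others. Ratios of all genes varied with transcript length: the median log2 ratio was 0.42 in the 352 genes under 1000 bases and -0.14 in the 151 genes of 10000 bases or more. The quartiles of these 151 long genes were -0.47 and 0.47, and 4 of them, Apob included, were as low as Apob. The part that transcript length has in the Apob value was not tested.

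**Figure D2:**
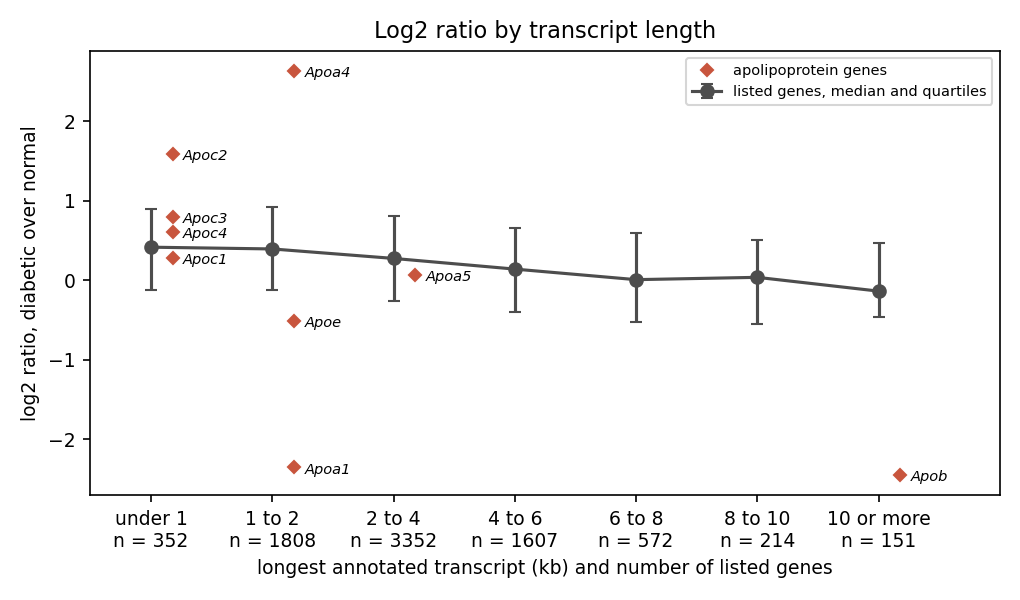
Log2 ratio of diabetic over normal by length of the longest annotated transcript, in bins of kilobases; grey points and bars are the median and quartiles of the listed genes in a bin, and red diamonds are the apolipoprotein genes placed beside their bin. The bin median went from 0.42 under 1 kb to -0.14 at 10 kb or more, and Apob, at -2.45, lay far below the quartiles of its bin.

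Apoe (Entrez 11816), the receptor ligand, was at 4849 TPM in normal liver and 3406 TPM in diabetic liver, from 49845 and 46005 reads. It was 1.42-fold lower, with a log2 ratio of -0.51 (-0.53 to -0.49), so the difference was larger than the counting error but did not reach 1.5-fold. After each of the 5 rescalings it did, at log2 ratios of -0.88 to -0.76. Its rank went from 7 to 11, and it became the most abundant listed apolipoprotein gene by tags. Macrophages also express Apoe, and 8 of 10 Kupffer cell and macrophage markers were listed: 1 was higher and 4 were lower by 1.5-fold, and their summed level was 327 TPM in normal liver and 194 TPM in diabetic liver. Most of that decrease lay in 1 gene, C1qa, which was at 176 and 50.7 TPM, whereas C1qb was higher, at 38.1 and 57.8 TPM, and Cd5l was at 64.7 and 62.9 TPM. Csf1r was also among the 4 lower markers, at 21.7 and 10.1 TPM, 2.14-fold lower. At the largest rescaling 0 of the 8 were higher and 6 lower. The part that these cells have in the Apoe value was not tested. Fewer cells of a type and less RNA per cell cannot be told apart in whole liver.

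The 4 C genes had ratios of diabetic over normal of 1.22 to 3.02. Apoc2 (Entrez 11813), the activator of lipoprotein lipase, showed the largest change of the 4: it was at 506 TPM, or 5205 reads, in normal liver against 1528 TPM, or 20636 reads, in diabetic liver. That is 3.02-fold higher (2.93 to 3.11), a log2 ratio of 1.59, and 593 listed genes, Apoc2 included, were as high. It kept the call after rescaling, at 1.22 to 1.34.

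Apoc3 (Entrez 11814), whose protein restrains lipoprotein lipase, was at 1865 TPM in normal liver and 3240 TPM in diabetic liver, from 19174 and 43764 reads. It was 1.74-fold higher (1.71 to 1.77), but its log2 ratio of 0.80 fell to 0.42 to 0.54 after rescaling, under the 1.5-fold threshold. Apoc4 (Entrez 11425), a minor VLDL component, was at 1013 and 1542 TPM, from 10417 and 20835 reads. Its 1.52-fold difference had an interval of 1.49 to 1.56 that reached under the threshold, and its rescaled log2 ratio was 0.23 to 0.35. Apoc1 (Entrez 11812), a small protein of VLDL and HDL, was at 1413 and 1718 TPM, from 14523 and 23210 reads, a log2 ratio of 0.28 (0.25 to 0.31) that lay between -0.09 and 0.03 after rescaling, so that its direction depended on the scaling.

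The ratio of 2 genes within a library does not depend on the scaling. There were 3.68 Apoc3 tags for each Apoc2 tag in normal liver and 2.12 in diabetic liver. Apoc4 had 2.00 tags for each Apoc2 tag in normal liver and 1.01 in diabetic liver. By tags, Apoc2 was thus higher in diabetic liver relative to both Apoc3 and Apoc4.

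Apoa4 (Entrez 11808) showed the largest fold increase of the group. ApoA-IV is made mainly in the intestine of most mammals and also in mouse liver, where it is a component of HDL and of triglyceride-rich particles. Its level was 105 TPM, or 1083 reads, in normal liver and 653 TPM, or 8820 reads, in diabetic liver. That is 6.20-fold higher (5.82 to 6.61), a log2 ratio of 2.63, reached or passed by 164 listed genes, Apoa4 included; its rank went from 545 to 103. After rescaling the log2 ratio was 2.26 to 2.38. The annotation places 2 genes on the opposite strand over Apoa4, Gm10680 and Gm47528, and the use of strand in the counting was not stated. Of 6 enterocyte markers, Vil1, Lct, Sis, Alpi and Cdx2 were not listed, and Fabp2, which liver may also hold, was at 266 and 283 TPM.

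Apoa5 (Entrez 66113), whose protein promotes lipolysis of triglyceride-rich particles, was by far the least abundant listed member. It was at 10.99 TPM, or 113 reads, in normal liver against 11.55 TPM, or 156 reads, in diabetic liver. Its log2 ratio of 0.07 had an interval of -0.29 to 0.43, so no difference was detectable at this depth, and after rescaling it was -0.30 to -0.18. Gm47544 overlaps Apoa5 on the opposite strand.

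**Figure D3:**
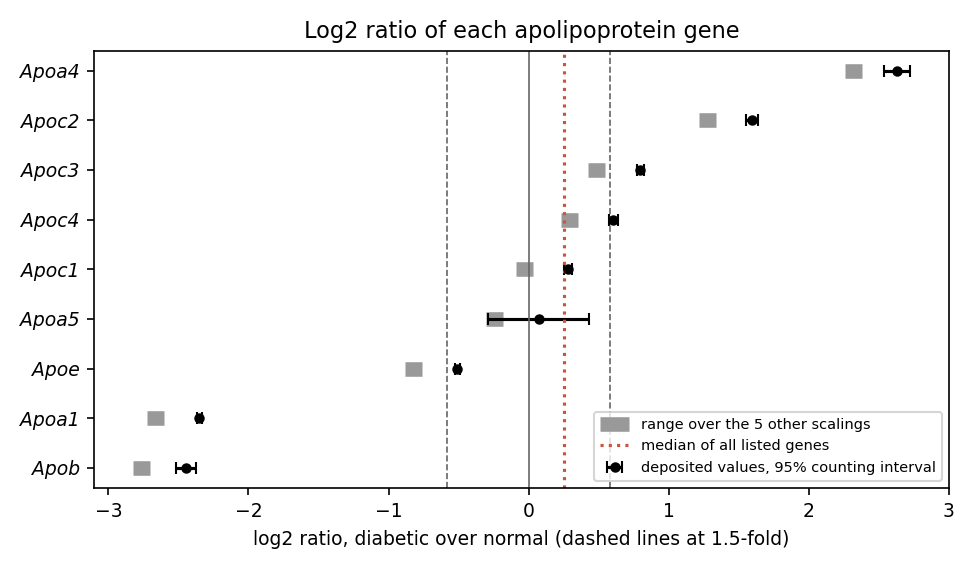
Log2 ratio of diabetic over normal for each listed apolipoprotein gene, with black points and bars for the deposited value and its 95% counting interval and grey boxes for the range over the 5 rescalings; dashed lines mark 1.5-fold and the dotted line the median of all listed genes. Apoa4 (2.63) and Apoc2 (1.59) lay above and Apoa1 (-2.35) and Apob (-2.45) below the threshold on every scale drawn, whereas Apoc3, Apoc4 and Apoe crossed it with the scaling.

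The order of the genes by tags differed between the libraries. In the normal library it was Apoa1, Apoe, Apoc3, Apoc1, Apoc4, Apob, Apoc2, Apoa4 and Apoa5, and each neighbour in that order differed from the next by more than the counting error. In the diabetic library it was Apoe, Apoc3, Apoa1, Apoc1, Apoc4, Apoc2, Apoa4, Apob and Apoa5, and Apoc4 and Apoc2 did not differ beyond it (ratio 1.01, 0.990 to 1.03). There were 0.127 Apoc3 tags for each Apoa1 tag in normal liver and 1.13 in diabetic liver. For Apoa4 the same ratio to Apoa1 went from 0.00718 to 0.227, and for Apoe from 0.331 to 1.18. Relative to Apob, Apoe went from 6.03 to 23.1 tags.

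Together the 9 genes took 6.81% (6.78% to 6.83%) of the tags on listed genes in normal liver and 3.41% (3.39% to 3.42%) in diabetic liver. Their summed level was 25236 and 15121 TPM, 1.67-fold lower in the diabetic library. Without Apoa1, the other 8 genes held 2.85% and 2.76% of listed tags, and their summed level was 10568 and 12246 TPM, a log2 ratio of 0.21 that was -0.16 to -0.04 after rescaling.

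Within the family, Apoa1 made up 58.1% of tags in normal liver and 19.0% in diabetic liver. The share of the 4 C genes went from 19.0% to 53.1%, while their summed level was 4798 and 8028 TPM, 1.67-fold higher, with a log2 ratio of 0.37 to 0.49 after rescaling. These shares move with the Apoa1 tags in the total. The Apoc3 share went from 7.39% to 21.4% and that of Apoc2 from 2.01% to 10.1%. Apob was 3.19% and 0.974%, and Apoa4 0.418% and 4.32%. Apoe held a like share of both, at 19.2% and 22.5%.

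**Figure D4:**
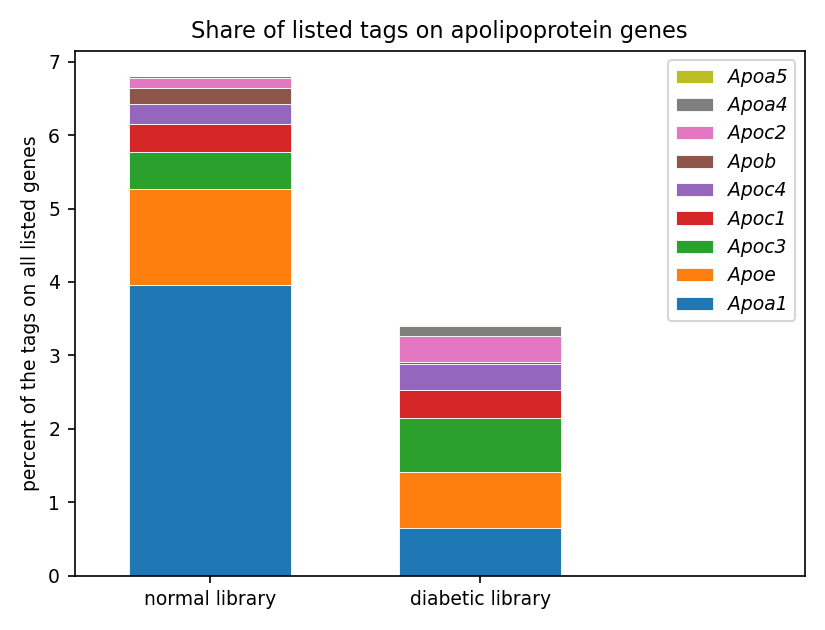
Percent of the tags on all listed genes that fell on each of the 9 listed apolipoprotein genes, stacked, for the normal and the diabetic library. The stack reached 6.81% for normal and 3.41% for diabetic liver, and the Apoa1 segment at its base shrank from 58.1% to 19.0% of the stack.

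Within each cluster the log2 ratios had both signs, and some adjacent genes shared one. On chromosome 9, Apoa1, Apoc3, Apoa4 and Apoa5 are neighbours, and among them Apoa1 was 5.10-fold lower while Apoc3 was 1.74-fold and Apoa4 6.20-fold higher. Their sum was 16650 TPM in normal liver and 6779 TPM in diabetic liver; without Apoa1 it was 1982 and 3904 TPM. On chromosome 7, Apoe, Apoc1, Apoc4 and Apoc2 are neighbours, and their log2 ratios ran from -0.51 for Apoe to 1.59 for Apoc2. Their sum was 7782 and 8194 TPM, a log2 ratio of 0.07 that was -0.30 to -0.18 after rescaling.

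The listed genes around the clusters had fewer tags than the cluster genes other than Apoa5. Of the 10 nearest protein-coding genes on chromosome 9 (5 on each side), 7 were listed, at no more than 50.2 TPM, with log2 ratios of -0.65 to 1.53. On chromosome 7, 7 of 10 were listed, at no more than 34.7 TPM, with ratios of -0.93 to 0.80. Around Apob on chromosome 12, 5 of 10 were listed, and their ratios were -0.38 to 0.65. None of these neighbours was as low as Apoa1 or Apob, or as high as Apoa4, but few genes anywhere were. Among all 8551 listed genes, 78 were as low as Apoa1, 72 as low as Apob and 164 as high as Apoa4, the gene itself included.

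**Figure D5:**
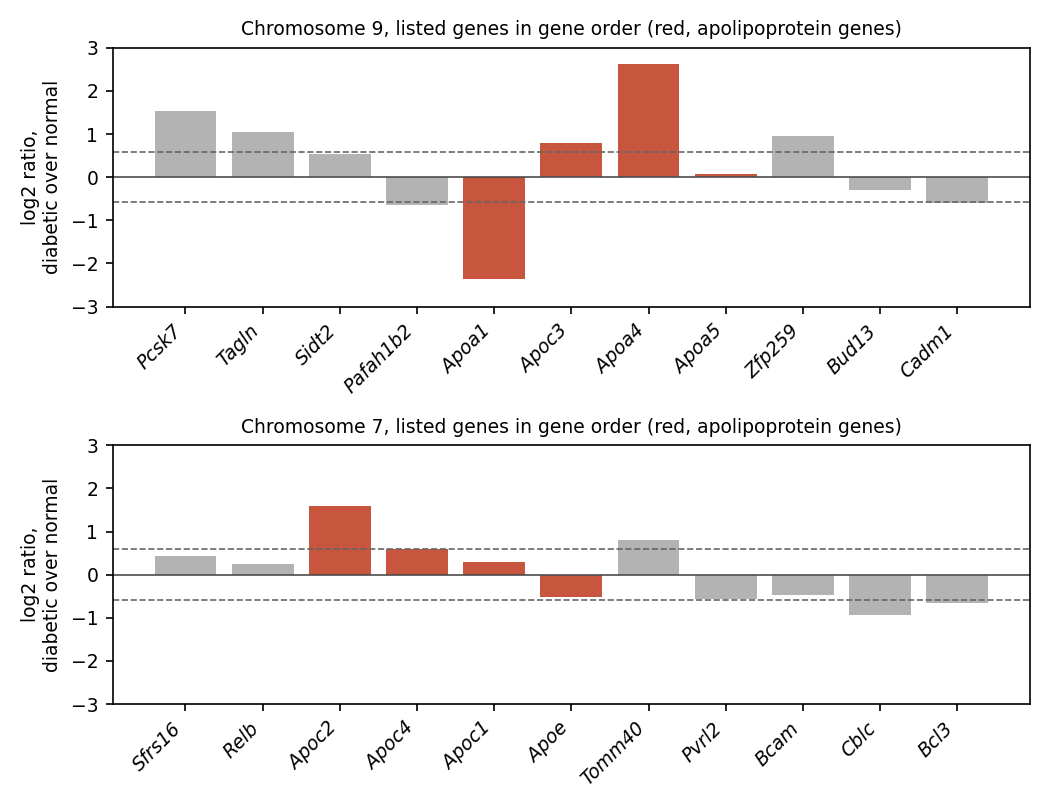
Log2 ratio of diabetic over normal, as bars, for the listed apolipoprotein genes (red) and listed protein-coding neighbours (grey) in gene order on chromosomes 9 and 7, not to genomic distance; dashed lines mark 1.5-fold. On chromosome 9, Apoa1 (-2.35) and Apoa4 (2.63) lie in 1 cluster and point in opposite directions.

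The promoters of the 4 genes with the largest differences are shown because these genes share clusters or function but not direction. Each run is the 250 bases before the RefSeq start on GRCm38.p6, in the direction of transcription. Of 4 motifs searched on both strands, matches are in capitals: TATAAA (the TATA box core), AGGTCA (a core hexamer of many nuclear receptors), and CAAAGTCCA and CAAAGTTCA (forms bound by HNF4A). The motifs were chosen after the sequences had been seen. Of the 10 genes 8 matched a RefSeq window; Apoc1 and Apoc3 did not.
Apoa1, chr9:46228380-46228629, plus strand: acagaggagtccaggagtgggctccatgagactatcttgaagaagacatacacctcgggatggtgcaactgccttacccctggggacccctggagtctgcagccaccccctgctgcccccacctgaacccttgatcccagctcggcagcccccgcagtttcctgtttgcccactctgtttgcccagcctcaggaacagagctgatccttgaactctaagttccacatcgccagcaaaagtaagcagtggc
Apoa4, chr9:46240594-46240843, plus strand: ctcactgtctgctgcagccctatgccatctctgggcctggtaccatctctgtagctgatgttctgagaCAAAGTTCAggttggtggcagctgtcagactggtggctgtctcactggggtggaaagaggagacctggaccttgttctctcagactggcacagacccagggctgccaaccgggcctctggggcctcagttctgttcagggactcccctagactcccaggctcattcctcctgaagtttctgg
Apob, chr12:7977427-7977676, plus strand: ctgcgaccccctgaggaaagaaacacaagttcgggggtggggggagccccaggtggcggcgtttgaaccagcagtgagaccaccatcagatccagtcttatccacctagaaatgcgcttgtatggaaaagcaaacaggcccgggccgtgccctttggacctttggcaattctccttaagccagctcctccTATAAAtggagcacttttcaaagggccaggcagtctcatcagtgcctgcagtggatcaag
Apoc2, chr7:19677942-19678191, minus strand: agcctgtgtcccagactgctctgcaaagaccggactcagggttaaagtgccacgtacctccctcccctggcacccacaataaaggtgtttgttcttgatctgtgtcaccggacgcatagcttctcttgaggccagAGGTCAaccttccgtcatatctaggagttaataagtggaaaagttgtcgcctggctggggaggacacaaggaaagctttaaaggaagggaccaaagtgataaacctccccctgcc

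The Apoa4 window held CAAAGTTCA 182 bases before the start, a motif found in 0.335% of 32851 promoter windows of this length. The Apob window held TATAAA 60 bases before the start, as 12.4% of windows did anywhere. Apoc2 held AGGTCA at 115 bases, a motif of 14.0% of windows. The Apoa1 window held none of the 4 motifs, and CAAAGTCCA, in 0.384% of windows, was in none of those printed. Only exact matches were searched, so a window without one may still hold other forms of these motifs. These matches describe the letters only. Because the motifs were chosen after the sequences had been seen, the shares of windows do not measure how unusual a match is.

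The other genes of lipoprotein metabolism are given as counts at 1.5-fold, to be read against the 34.4% of all listed genes that were higher and the 15.3% that were lower. Of 29 genes of particle assembly and secretion, 23 were listed, 12 were higher and 3 lower, with a median log2 ratio of 0.79; at the largest rescaling, where all genes were 19.8% higher and 28.5% lower, 7 were higher and 3 lower. P4hb, which encodes the small subunit of the microsomal triglyceride transfer protein beside its role in protein folding, was at 278 and 736 TPM, 2.65-fold higher. Dgat1, which makes triglyceride, was at 2.72 and 18.1 TPM. Mttp, the large subunit and partner of ApoB in particle assembly, named after its values were seen, was at 3.79 and 6.74 TPM, a log2 ratio of 0.83 (0.27 to 1.41) that did not pass the FDR and was 0.46 to 0.58 after rescaling, under 1.5-fold.

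Of 23 receptors and uptake genes, 21 were listed, 8 higher and 4 lower, with a median of 0.08; at the largest rescaling 4 were higher and 7 lower. Cd36, a fatty acid transporter, was at 12.1 and 213 TPM, 17.7-fold higher. Lsr, the lipolysis-stimulated receptor that binds particles with ApoB and ApoE, was at 63.2 and 19.8 TPM, 3.19-fold lower. Scarb1, the HDL receptor, was at 140 and 96.8 TPM, and Lrp1, a receptor of ApoE, at 105 and 72.6 TPM, both lower by under 1.5-fold as deposited and by more after all 5 rescalings.

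Of 20 genes of lipolysis, lipid transfer and efflux, 17 were listed, 7 higher and 2 lower, with a median of 0.38; at the largest rescaling 3 were higher and 4 lower. Lipc, hepatic lipase, was 1.68-fold lower, at 281 and 167 TPM. Lcat, whose enzyme esterifies cholesterol on HDL with ApoA-I as cofactor, was at 243 and 336 TPM. Of 20 other apolipoprotein and related genes, 11 were listed, 3 higher and 0 lower, with a median of 0.24; at the largest rescaling 2 were higher and 2 lower. Apoh, which encodes beta-2-glycoprotein I, was at 749 and 1190 TPM, 1.59-fold higher, but its log2 ratio of 0.67 was 0.29 to 0.41 after rescaling. Of 10 genes tied to editing of Apob mRNA, 6 were listed, 2 higher and 0 lower (1 and 2 at the largest rescaling), and the editing enzyme Apobec1 was not listed.

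Of 42 transcription factors known for apolipoprotein genes, 31 were listed, 9 higher and 6 lower, with a median of 0.21; at the largest rescaling 5 were higher and 9 lower. Pparg was at 7.59 and 51.8 TPM, 6.82-fold higher, and Nr1d1, a clock repressor, at 13.1 and 38.5 TPM, 2.93-fold higher. The following 3 were named after their values were seen. Hnf4a, a hepatocyte nuclear receptor, was at 96.8 and 46.2 TPM, 2.10-fold lower. Ppara, the fatty acid sensor, was at 36.6 and 82.1 TPM, 2.24-fold higher. Creb3l3, a liver membrane-bound factor, was at 39.6 and 67.3 TPM, 1.70-fold higher as deposited and under 1.5-fold after all 5 rescalings.

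Hepatocyte markers (6 of 8 listed, 0 higher, 1 lower, which was Fgb) summed to 18583 TPM in normal liver and 17408 TPM in diabetic liver. Alb was at 6801 and 6912 TPM. Fgb, a fibrinogen chain, had a log2 ratio of -0.79. None of the 6 was as low as Apoa1 or Apob, but only 78 and 72 of all 8551 listed genes were. Endothelial markers (7 of 7 listed, 2 higher, 1 lower) summed to 112 and 102 TPM, stellate markers (5 of 6 listed, 1 higher, 1 lower) to 107 and 149 TPM, and cholangiocyte markers (3 of 5 listed, 1 higher, 0 lower) to 61.5 and 107 TPM. Nearly all of the cholangiocyte increase lay in 1 gene, Spp1, at 57.2 and 103 TPM, and the other listed cholangiocyte markers differed by under 1.5-fold. At the largest rescaling the counts of higher and lower were 0 and 2 for endothelial, 1 and 1 for stellate and 0 and 0 for cholangiocyte markers. Of 5 erythroid markers only Alas2 was listed, at 51.9 and 44.2 TPM.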

How the data were processed

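The authors deposited 1 table with a value per gene and library, named TPM and equal to tags per 1000000 clean tags (RPM), rounded to 2 decimals. Genes with a mean under 1 TPM had been left out and an undetected gene carried 0.01. Tags were compared with RefSeq; the submitters' processing notes name build mm9, and aligner, mismatches and shared tags were not given in the sources used here. All sample columns were used (0 left out).

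Whole reads were recovered from the steps of the values (tolerance 0.1 read: 8513 of 8513 and 8536 of 8537 detected values). Ratios are of deposited values, with 95% Clopper-Pearson intervals from reads, and shares carry Wilson intervals. A gene was called at a fold change of at least 1.5, and also with FDR under 0.001 (two-sided exact binomial test, Benjamini-Hochberg over 8551 genes); that test compares 2 libraries, not conditions. The scripts were tested on simulated data. Alternatives were 5 scalings, a pseudocount of 1, a 2-fold threshold, genes averaging 5 TPM or more, another count test, leaving out Apoa1, and clean tags as denominator.

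The members, gene lists and rules were chosen with earlier results of these data known. From each list, genes that averaged 10 TPM or more could be named, at most the 3 most abundant and the 2 with the largest ratio, beside the exceptions stated. Gene models were GENCODE M21 and RefSeq GRCm38.p6, a different build from mm9, so no coordinate of the files was used. Python 3.11.15, numpy 2.4.6, scipy 1.17.1 and pandas 2.3.3 were used.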

Additional observations from a re-analysis of the deposited data

How the results depend on the processing

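The median log2 ratio of the 9 apolipoprotein genes, 0.28 as deposited, depended on the scaling: it was 0.023 with the sum of listed genes, 0.029 with TMM, 0.014 with the upper quartile, -0.024 with the median ratio and -0.093 with the sum without the 10 most abundant genes. Without Apoa1 it was 0.44. The share of tags on the members was 2.85% and 2.76% without Apoa1, and 2.52% and 1.51% over all clean tags. The count of called genes was 4 to 6 in every alternative run, but the share of all genes called moved as well. By fold change the count was 5 under each of the 5 scalings, against 47.5% to 48.3% of all genes. It was 6 with the pseudocount, against 41.2% of all genes, and 6 with the filter on low values, against 28.4%. At a 2-fold threshold it was 4 (Apoa4, Apoc2, Apoa1 and Apob), against 25.4% of all genes, 18.6% higher and 6.81% lower. The log2 ratios of these 4 kept their sign under the 5 scalings, the pseudocount and the filter on low values, the alternatives under which they were recomputed. With 1 library per group, no replicate could be left out. No paired analysis was possible because each group has 1 library. Counting error is small for all listed members but Apoa5, and the spread between animals is unknown.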
